A study of Mus musculus with 8 samples.

Results

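The genes of vesicle and membrane trafficking were examined by ChIP–seq of Pol II pSer5 in lung smooth muscle cells (SMCs). They were chosen by name alone, as the peaks whose gene symbol starts with one of the family names of Rab, Tbc1d, Arf, Arl, Sec, COPI, Tmed, Trapp, Exoc, Cog, Golga, Stx, Vamp, Vps, Snx or Chmp proteins, and the name rule uses no measured value. The rule found 45 peaks, 1 in each of 45 protein-coding genes, among 1761 peaks in all.

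The study compared 2 immunoprecipitated libraries of Ctrl SMCs with 2 of Tet3smKO:T SMCs, all from C57BL/6 mice. In Tet3smKO:T mice, floxed *Tet3* alleles were deleted by a tamoxifen-inducible Cre driven by the promoter of α-smooth muscle actin, and a tdTomato reporter in the ROSA26 locus was switched on in the same cells. The methods describe control mice in general as carrying the Cre, the reporter or both, without floxed *Tet3*. Sorting by tdTomato needs both the reporter and the Cre that switches it on. Tamoxifen was given at 75 mg per kg daily for 10 days to mice of 8 weeks, and the age at collection and the number of mice behind each library are not given in the sources used here. Blood cells were depleted, living tdTomato-positive lung cells were sorted by FACS, and the sorted cells were kept with DRB (100 µmol, 4 °C, 1 h). DRB inhibits the kinase that lets paused polymerase move on, and the antibody sees polymerase phosphorylated at serine 5, the form found at and shortly after initiation. The Cre marks every cell with an active actin promoter, so vascular and airway SMCs cannot be told apart. The methods speak of biological replicates for quantitative analyses in general, and the sources used here do not say from which mice each of these libraries came, so p-values measure the spread between these libraries, part of which may be technical.

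Membrane trafficking carries proteins and lipids between compartments in coated vesicles. Cargo enters the endoplasmic reticulum (ER) through the Sec61 channel, leaves it in COPII-coated vesicles and returns in COPI-coated ones. Arf and Rab GTPases mark the membranes, golgins and multisubunit tethers such as COG, TRAPP and the exocyst catch the vesicles, and SNAREs such as syntaxins and VAMPs fuse them. Sorting nexins, retromer-like complexes and ESCRT proteins then sort cargo at endosomes. In SMCs this machinery serves the secretion of matrix and the turnover of surface receptors, and most of its genes are used in nearly every cell type.

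Sequence around the start is shown for the genes on which the comparison of genotypes turns and for *Rab33b*, the peak of highest value. Each runs from 150 bases before to 30 bases after the annotated start on the strand of the gene, so that the start is base 151, and was read from GRCm38. Capitals mark the motifs searched on both strands, namely GGGCGG (GC box), CCGGAAG (ETS), CACGTG (E-box), CCACG (the ERSE core of ER stress elements), GCGCATGC (NRF1 core), AAGATGGC (YY1), CCAAT (the CCAAT box), TATAAA (the TATA box) and TGACGTCA (CRE). A match on the other strand appears as the reverse complement. The windows were chr12:102468985-102469164 (plus strand) for *Golga5*, chr1:185203967-185204146 (plus) for *Rab3gap2*, chr9:66124857-66125036 (minus) for *Snx1*, chr2:180967075-180967254 (plus) for *Arfgap1*, chr1:162570365-162570544 (plus) for *Vamp4* and chr3:51483816-51483995 (plus) for *Rab33b*.
Golga5: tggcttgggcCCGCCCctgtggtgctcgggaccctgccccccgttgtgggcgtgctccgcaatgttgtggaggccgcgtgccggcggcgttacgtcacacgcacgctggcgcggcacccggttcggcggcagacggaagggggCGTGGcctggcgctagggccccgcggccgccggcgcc
Rab3gap2: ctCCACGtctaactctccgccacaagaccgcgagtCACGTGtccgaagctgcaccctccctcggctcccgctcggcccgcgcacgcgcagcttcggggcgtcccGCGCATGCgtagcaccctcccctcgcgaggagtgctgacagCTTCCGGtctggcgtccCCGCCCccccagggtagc
Snx1: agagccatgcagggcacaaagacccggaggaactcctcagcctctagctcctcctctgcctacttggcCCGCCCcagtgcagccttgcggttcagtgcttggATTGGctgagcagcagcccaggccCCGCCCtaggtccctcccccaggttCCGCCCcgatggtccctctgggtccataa
Arfgap1: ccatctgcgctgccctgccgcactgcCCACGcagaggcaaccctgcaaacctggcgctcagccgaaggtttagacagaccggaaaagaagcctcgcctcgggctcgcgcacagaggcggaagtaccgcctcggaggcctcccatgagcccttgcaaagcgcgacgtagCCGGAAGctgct
Vamp4: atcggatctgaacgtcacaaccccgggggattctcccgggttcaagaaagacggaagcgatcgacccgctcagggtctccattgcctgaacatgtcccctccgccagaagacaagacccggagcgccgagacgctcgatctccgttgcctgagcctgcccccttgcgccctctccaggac
Rab33b: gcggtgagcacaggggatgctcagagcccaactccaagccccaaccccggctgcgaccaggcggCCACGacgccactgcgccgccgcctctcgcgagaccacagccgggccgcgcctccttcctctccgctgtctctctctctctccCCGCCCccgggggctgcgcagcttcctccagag
The peak covered 170 of these 180 bases at *Golga5*, 151 at *Arfgap1* and 128 at both *Rab3gap2* and *Rab33b*. At *Snx1* and *Vamp4*, whose peaks lie mostly downstream of the start, it covered 46 and 13. The peak of *Snx5* begins further downstream, so its start is not shown.

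The values of the peaks were low, and the sequencing depth of these libraries is not given in the sources used here. The deposited value of a peak is a read number that the authors normalized with DESeq2 and rounded, and these values, made comparable by that normalization, summed to between 25673 and 27058 over all peaks. The scale factor of each library is not given in the sources used here and was estimated from its rounded values. Dividing by this factor gives an estimate of about 21646 to 37207 reads in peaks per library, of which 570 to 958 fell in the trafficking peaks. Input had been subtracted before normalization, so these estimates are not raw read numbers. A trafficking peak thus rests on few estimated reads, with a median of 11 to 17 per library and a range of 2 to 68. No peak was assigned to *Tet3* itself, to any of 9 smooth muscle markers or to any of 18 markers of immune, epithelial, endothelial and fibroblast cells, so neither the genotype nor the cell type of a library could be checked from these peaks.

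The Pol II pSer5 peaks called at the trafficking genes were mostly promoter peaks. Signal spread over gene bodies that formed no called peak is not among these values, so it could not be examined here. By the authors' gene assignment, 43 of the 45 peaks had their centre within 5000 nt of the start of their gene, and all 43 centres lay between 87.5 nt upstream and 229 nt downstream of it. The other 2 peaks, of *Arfgap3* and *Tmed9*, lay further inside their genes. Over all peaks, 1125 of 1761 were promoter peaks, 230 lay further inside a gene and 406 had no gene assigned. An annotated transcript start of any gene lay within 500 nt of the centre at 91 of these 230 and 189 of these 406. The centre was upstream of the start in 51.2% of the trafficking promoter peaks and in 47.5% of all promoter peaks. Their width ranged from 119 to 420 nt, and the median was 194 nt against 198 nt over all peaks. Their median value over the 4 libraries was 13.75 against 13.0 over all peaks, or 7.35 against 6.63 per 100 nt. With promoter peaks alone the medians were 14.25 for trafficking genes and 13.75 for all genes.

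**Figure D1:**
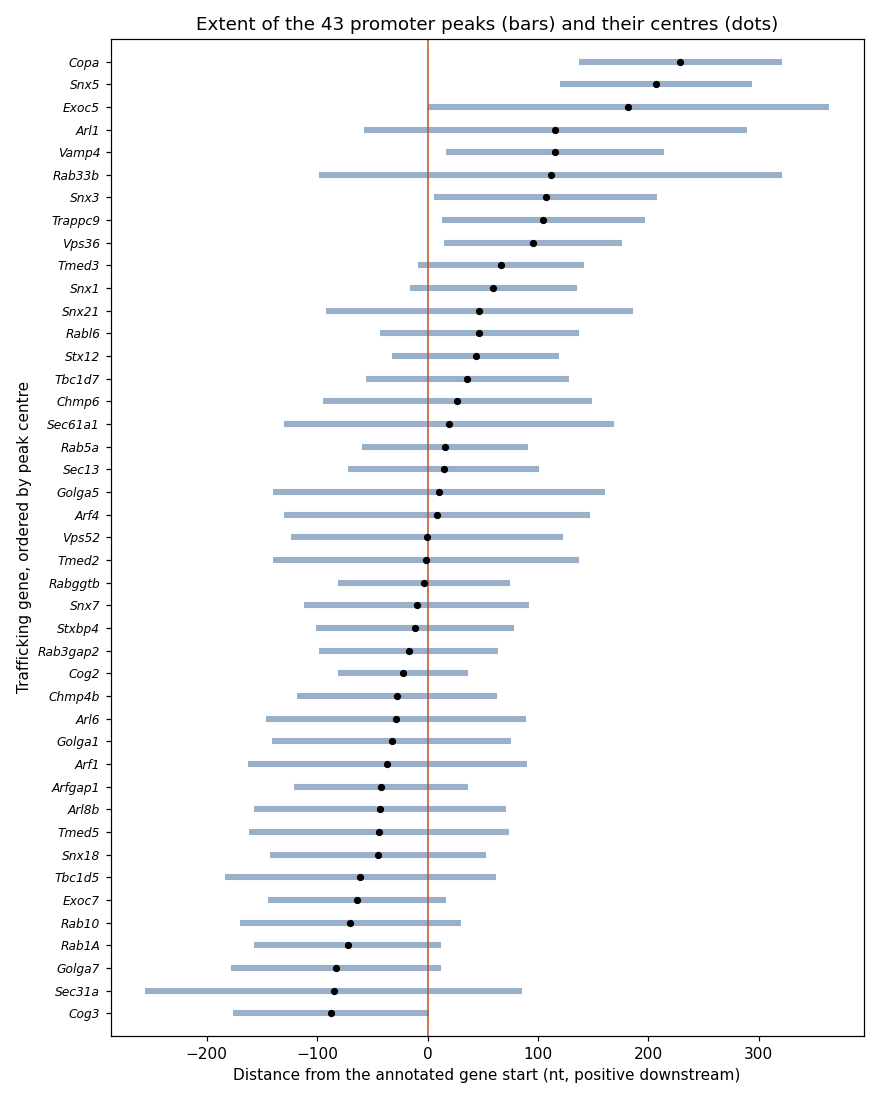
Position of the 43 trafficking promoter peaks relative to the annotated start of their gene (x axis, nt, positive downstream), with bars for the extent of each peak, dots for its centre and a line at the start. Centres run from 87.5 nt upstream at *Cog3* to 229 nt downstream at *Copa*.

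In GENCODE M21, the annotation of GRCm38 used here, the name rule matched 348 protein-coding genes, of which 46 (13.2%) had an assigned peak by gene identifier, against 1226 of all 21938 protein-coding genes (5.59%). The 46th gene is named *Dscr3* in the table and carries a Vps name in the annotation, and it was not counted as a trafficking gene because the rule reads the names of the table. The shares were 3 of 7 for genes with a Golga name and 4 of 11 for the p24 proteins (Tmed). They were 2 of 8 for COG and 6 of 30 for sorting nexins. The large Rab family (7 of 82) and the TBC-domain proteins (2 of 30) had lower shares. A gene without an assigned peak had no peak past the authors' threshold, or had one assigned to another gene or to none. The latter held for 15 trafficking genes, described below, so these shares count assigned peaks only. All protein-coding genes were counted whether or not they are expressed in these cells, and a share among expressed genes was not computed. A missing peak does not show that a promoter was free of polymerase.

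Genes of the route into and out of the ER had mean values from 8.25 at *Tmed3* to 31 at *Sec31a*. *Sec31a*, which encodes the outer COPII coat with *Sec13*, had normalized values of 37 and 24 (Ctrl) against 25 and 38 (Tet3smKO:T). *Sec61a1*, the pore of the translocation channel, had 26 and 24 (Ctrl) against 24 and 23 (Tet3smKO:T). The values of *Sec61a1* stayed between 23 and 26, while those of *Sec31a* differed more within a genotype than between genotypes. *Sec13*, which also serves nuclear pores, was lower, with 17 and 6 (Ctrl) against 6 and 10 (Tet3smKO:T). Of the p24 cargo receptors, *Tmed2* had 17 and 26 (Ctrl) against 21 and 29 (Tet3smKO:T), and *Tmed5* had 18 and 10 (Ctrl) against 14 and 16 (Tet3smKO:T). *Tmed3* had the lowest mean value of the family at 8.25, with 9 and 10 (Ctrl) against 8 and 6 (Tet3smKO:T). *Copa*, the α subunit of the COPI coat, had 19 and 15 (Ctrl) against 15 and 11 (Tet3smKO:T), and was the single COPI gene with a peak out of 8. The genotypes overlapped, or touched at equal values, at all of these genes except *Tmed3*.

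*Golga5*, a golgin anchored in the Golgi membrane that holds Golgi stacks together, was the highest of the Golgi tethers and is described with the comparison of genotypes. *Golga7*, a partner of a palmitoyltransferase that anchors Ras proteins, had 20 and 23 (Ctrl) against 12 and 19 (Tet3smKO:T), so that both Tet3smKO:T libraries were lower. *Golga1*, a golgin of the trans-Golgi network, had 16 and 13 (Ctrl) against 13 and 19 (Tet3smKO:T). The COG subunits *Cog3* (17 and 10 in Ctrl, 16 and 12 in Tet3smKO:T) and *Cog2* (9 and 4, then 8 and 4) differed more between replicates than between genotypes. *Trappc9*, a subunit of the TRAPPII tether, had 12 and 10 in each genotype and a log2 fold change of 0.

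*Rab33b*, a Golgi Rab that also acts in autophagosome formation, had the highest value of all trafficking peaks, also per length. Its values were 62 and 60 (Ctrl) against 41 and 62 (Tet3smKO:T), with a mean of 56.25 in a peak of 420 nt, or 13.4 per 100 nt. The next trafficking genes per length were *Golga7* (9.69 per 100 nt), *Rab1A* (9.41), *Golga5* (9.35) and *Arf4* (9.35), and the lowest were *Vps36* (3.70) and *Arfgap3* (3.61). The low value of *Rab33b* came from Tet3smKO:T replicate 1 alone, and the log2 fold change of -0.27 became 0.023 without that library. *Rab10*, which guides exocytic vesicles, scattered widely, with 19 and 14 (Ctrl) against 7 and 26 (Tet3smKO:T). *Rab1A*, the Rab of ER-to-Golgi transport, had 15 and 21 (Ctrl) against 12 and 16 (Tet3smKO:T). *Rab5a*, the Rab of early endosomes, had 15 in both Ctrl libraries and 9 and 13 in Tet3smKO:T. *Rabggtb*, a subunit of the enzyme that attaches the lipid anchor to Rabs, and *Rabl6*, a Rab-like protein, ranged from 9 to 12 and from 10 to 13 over the 4 libraries.

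Of the TBC-domain proteins, which switch Rabs off, *Tbc1d5* and *Tbc1d7* had peaks. *Tbc1d5*, a regulator of Rab7 and retromer, had 11 and 9 (Ctrl) against 17 and 13 (Tet3smKO:T), so both Tet3smKO:T libraries lay above both Ctrl libraries. *Tbc1d7*, known as a subunit of the TSC complex that restrains mTORC1, had 15 and 11 (Ctrl) against 19 and 12 (Tet3smKO:T).

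*Arf4* and *Arf1*, GTPases of the Golgi that recruit COPI and other coats, had the highest values of their family. *Arf4* had 22 and 28 (Ctrl) against 24 and 30 (Tet3smKO:T). *Arf1* had 19 and 23 (Ctrl) against 17 and 14 (Tet3smKO:T), with both Tet3smKO:T libraries below both Ctrl libraries. The Arf-like genes *Arl1* of the trans-Golgi, *Arl8b* of lysosome movement and *Arl6* of cilia ranged from 13 to 21, from 14 to 20 and from 6 to 15, and the genotypes overlapped at each.

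Genes of endosomal sorting and ESCRT had mean values from 6 at *Vps36* to 20.5 at *Snx21*. Among sorting nexins, *Snx21* had 29 and 15 (Ctrl) against 15 and 23 (Tet3smKO:T), and *Snx3*, which delivers cargo to retromer, had 15 and 19 (Ctrl) against 12 and 23 (Tet3smKO:T). *Snx7* ranged from 11 to 21 and *Snx18* from 6 to 17, without separation of the genotypes. *Vps52*, a subunit of the GARP tether, had 12 and 30 (Ctrl) against 21 and 16 (Tet3smKO:T), and *Vps36* of ESCRT-II had the lowest mean value of the module, with 5 and 6 (Ctrl) against 9 and 4 (Tet3smKO:T). The ESCRT-III genes *Chmp6* (22 and 14 in Ctrl, 20 and 19 in Tet3smKO:T) and *Chmp4b* (11 and 21, then 10 and 13) also overlapped.

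At the plasma membrane and in fusion, the exocyst gene *Exoc5* had 27 and 29 (Ctrl) against 30 and 35 (Tet3smKO:T), whereas *Exoc7* had 13 in both Ctrl libraries and 10 and 8 in Tet3smKO:T. The values of these subunits of the same tether thus lay apart between genotypes in opposite directions, and neither passed the test. *Stx12*, an endosomal syntaxin, had 7 and 8 (Ctrl) against 8 and 10 (Tet3smKO:T). *Stxbp4*, a syntaxin-binding protein, had 12 and 23 (Ctrl) against 13 and 7 (Tet3smKO:T).

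**Figure D2:**
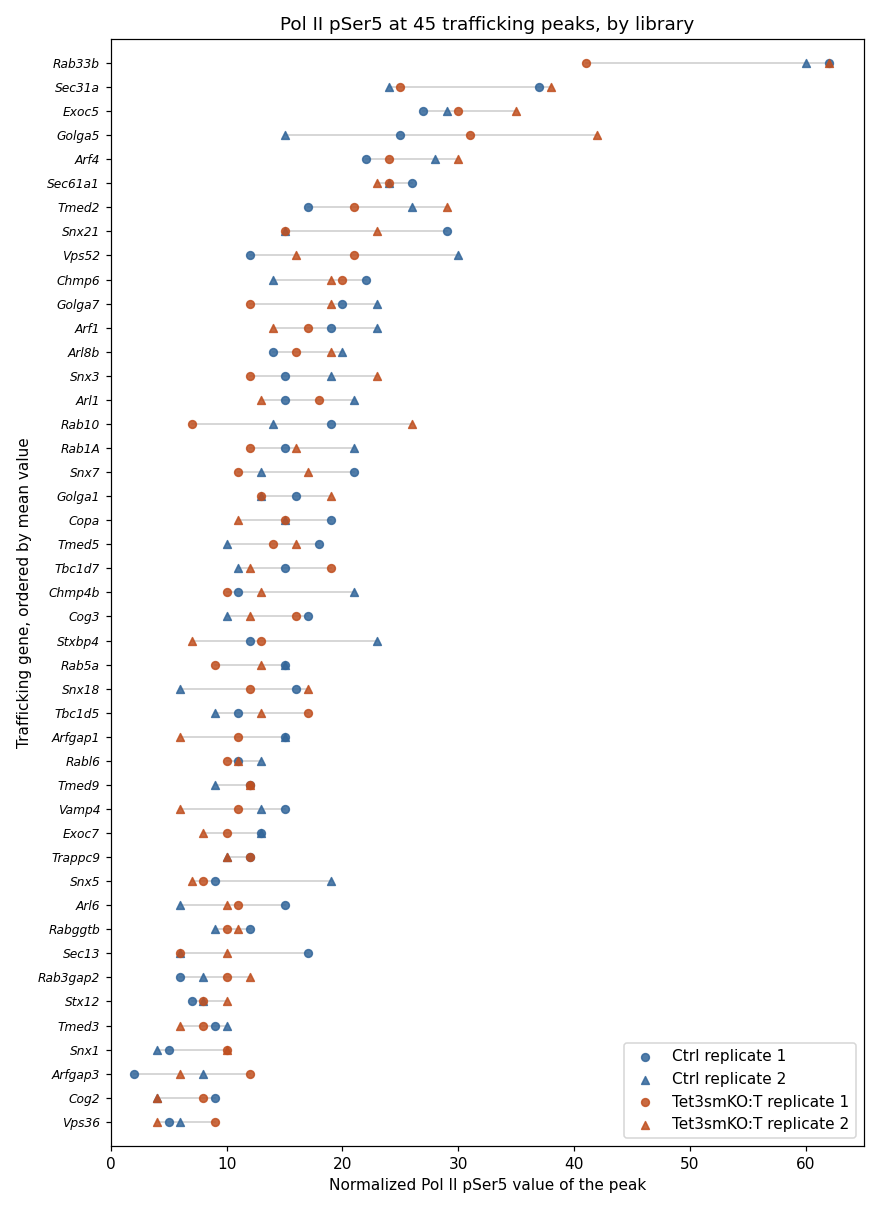
Normalized Pol II pSer5 value (x axis) of the 45 trafficking peaks in each library, ordered by mean value, with circles for replicate 1 and triangles for replicate 2, blue for Ctrl and orange for Tet3smKO:T, and a grey line for the range. *Rab33b* stands apart at 41 to 62, and the genotypes overlap at 32 of the 45 peaks.

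The comparison of genotypes asked whether deletion of *Tet3* changed Pol II pSer5 at these genes. No trafficking peak passed the moderated test of limma after Benjamini–Hochberg adjustment over all 1761 peaks, where 0% of peaks passed and the lowest adjusted p was 0.681. At an unadjusted p under 0.05 in the same limma test, 1 of 45 trafficking peaks (*Golga5*) was higher in Tet3smKO:T and 0 were lower, while 3.24% of all peaks were higher and 3.98% lower. Both Tet3smKO:T libraries lay above both Ctrl libraries at 5 trafficking peaks (17.1% of all peaks did so) and below them at 8 (16.6% of all peaks). These are 11.1% and 17.8% of the trafficking peaks. Among the 1125 promoter peaks, 164 were higher and 196 lower in this way, and no difference between these shares was tested. The groups overlapped or touched at the remaining 32 trafficking peaks. The median log2 fold change was -0.018, against -0.016 over all peaks, with 21 peaks above 0 and 23 below. The median size of the log2 fold change was 0.23 at trafficking peaks, 0.28 at all promoter peaks and 0.33 over all peaks. Between replicates of 1 genotype, the median size of the log2 difference at trafficking peaks was 0.38 in Ctrl and 0.39 in Tet3smKO:T. Over all peaks it was 0.42 and 0.39. A fold change compares means of 2 libraries and a replicate difference compares single libraries, so their sizes cannot be set directly against each other.

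Summed over the trafficking peaks, the normalized values were 741 and 713 (Ctrl) against 661 and 740 (Tet3smKO:T). This was 2.80% and 2.64% of the sum over all peaks in Ctrl and 2.57% and 2.78% in Tet3smKO:T, so the genotypes overlapped. The lowest sum was that of Tet3smKO:T replicate 1, in which the Rab genes and their partners gave 15.0% of the trafficking sum, against 18.9% to 20.4% in the other 3 libraries. Summing peaks per gene gave the same picture as single peaks, since each trafficking gene had 1 peak, and 0 of 45 genes passed limma with Benjamini–Hochberg adjustment over 1312 genes, with 1 trafficking gene at an unadjusted p under 0.05 in limma among 75 of all genes.

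The 5 trafficking genes at which both Tet3smKO:T libraries were higher were *Snx1*, *Golga5*, *Rab3gap2*, *Tbc1d5* and *Exoc5*. *Golga5* had 25 and 15 (Ctrl) against 31 and 42 (Tet3smKO:T) at chr12:102468995-102469296. Its log2 fold change of (value + 1) was 0.86 (SE 0.33), with an unadjusted p of 0.041 and an adjusted p of 0.681 in limma. The replicates differed by 10 in Ctrl and by 11 in Tet3smKO:T, and the unadjusted p was above 0.05 when any 1 library was left out. The fold change was 0.51 without Ctrl replicate 2. *Snx1*, a membrane-bending sorting nexin of endosome-to-Golgi retrieval, had 5 and 4 in Ctrl and 10 in both Tet3smKO:T libraries at chr9:66124751-66124902. Its log2 fold change was 1.01 (SE 0.44; limma adjusted p = 0.691), the highest of the module at one of its lowest peaks. *Rab3gap2*, the regulatory subunit of a complex that acts on Rab3 and *Rab18*, had 6 and 8 (Ctrl) against 10 and 12 (Tet3smKO:T) at chr1:185204019-185204181, a log2 fold change of 0.59 (SE 0.36; limma adjusted p = 0.716).

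The 8 genes at which both Tet3smKO:T libraries were lower were *Arfgap1*, *Snx5*, *Vamp4*, *Exoc7*, *Golga7*, *Rab5a*, *Arf1* and *Tmed3*. *Arfgap1*, which switches *Arf1* off at the Golgi, had 15 in both Ctrl libraries and 11 and 6 in Tet3smKO:T at chr2:180967104-180967262. Its log2 fold change was -0.80 (SE 0.37; limma adjusted p = 0.693), and -0.42 without Tet3smKO:T replicate 2. *Arfgap1* and its substrate *Arf1* were thus both lower in these libraries, without passing the test. *Snx5*, a partner of *Snx1* in the same retrieval coat, had 9 and 19 (Ctrl) against 8 and 7 (Tet3smKO:T) at chr2:144270612-144270786, a log2 fold change of -0.74 (SE 0.43; limma adjusted p = 0.716), which was -0.24 without Ctrl replicate 2 and -1.24 without Ctrl replicate 1. *Vamp4*, a SNARE of the trans-Golgi and endosomes, had 15 and 13 (Ctrl) against 11 and 6 (Tet3smKO:T) at chr1:162570532-162570729, with a fold change on the log2 scale of -0.71 (SE 0.38; limma adjusted p = 0.716), which was -1.10 without Tet3smKO:T replicate 1 and -0.32 without replicate 2. The partners *Snx1* and *Snx5* had fold changes of opposite sign, a difference between genes that was not tested.

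**Figure D3:**
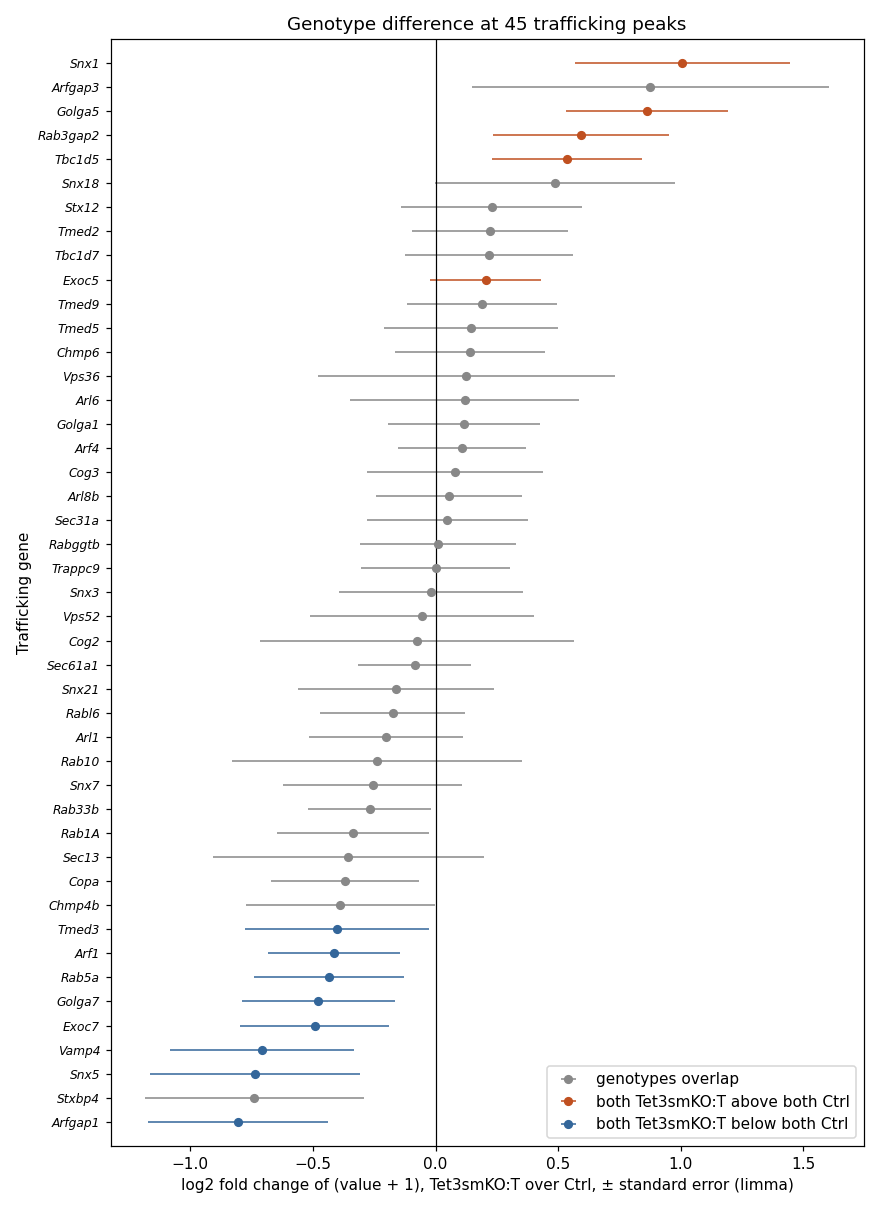
Log2 fold change of (value + 1), Tet3smKO:T over Ctrl (x axis), with its standard error from limma (bars, n = 2 libraries per genotype), for the 45 trafficking peaks. Orange marks the 5 peaks at which both Tet3smKO:T libraries were higher, blue the 8 at which both were lower and grey the 32 with overlap, and no peak passed the adjusted test.

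Of the peaks inside genes, that of *Tmed9* fell on a promoter when single transcripts were considered. The peak, at chr13:55593040-55593205, lay 19391 nt from the start of the gene as annotated, which is the start of transcript Tmed9-203. It holds the starts of the other 4 of 5 transcripts in GENCODE M21, among them the protein-coding Tmed9-201, which starts at position 55593169. The values were 12 and 9 in Ctrl and 12 in both Tet3smKO:T libraries, with a log2 fold change of 0.19 (SE 0.31; limma adjusted p = 0.867), which was 0 without Ctrl replicate 2 and 0.38 without Ctrl replicate 1. The sequence around the start of Tmed9-201, in the same frame as above (chr13:55593019-55593198, plus strand, 159 bases of it in the peak), holds the YY1 letters just after the start. The 200 nt around the peak centre were 68.0% G or C with 10.0 CpG per 100 nt.
Tmed9: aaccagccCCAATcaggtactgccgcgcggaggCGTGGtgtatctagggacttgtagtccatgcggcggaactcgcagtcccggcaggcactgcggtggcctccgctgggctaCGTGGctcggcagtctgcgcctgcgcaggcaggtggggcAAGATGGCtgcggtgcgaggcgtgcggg

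The peak of *Arfgap3*, a second Arf GTPase-activating protein of the Golgi, was the other exception. It lay in an intron at chr15:83305461-83305654, with its centre 44689.5 nt into the gene, and no annotated start of the gene fell inside it. The nearest one, of the processed transcript Arfgap3-205 at position 83305341, was 216.5 nt downstream of the centre. Its values were 2 and 8 (Ctrl) against 12 and 6 (Tet3smKO:T), with a log2 fold change of 0.88 (SE 0.73; limma adjusted p = 0.744), which became 0.084 without Ctrl replicate 1. The 200 nt around the centre were 42.5% G or C with 2.0 CpG per 100 nt, the fewest CpG of the module, and hold a TATAAA. It is shown whole, on the strand of the gene.
Arfgap3: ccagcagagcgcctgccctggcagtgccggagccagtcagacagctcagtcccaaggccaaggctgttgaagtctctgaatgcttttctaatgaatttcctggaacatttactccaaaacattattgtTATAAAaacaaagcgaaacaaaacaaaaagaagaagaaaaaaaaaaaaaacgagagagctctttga

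Several trafficking promoters are shared with a neighbour, and ChIP reads carry no strand, so the signal of the 2 genes cannot be told apart there. The centre of 13 of the 45 peaks (28.9%) lay within 500 nt of the start of another gene on the opposite strand, as did 30.2% of all promoter peaks. In 6 cases (13.3%, against 17.3% of all promoter peaks) the partner was protein-coding. These were *Copa* with *Ncstn*, *Exoc5* with *Ap5m1*, *Snx5* with *Mgme1*, *Stxbp4* with *Cox11*, *Vps52* with *Rps18* and *Tmed5* with *Ccdc18*. At *Copa*, the nearest transcript start of *Ncstn*, a subunit of γ-secretase, was 37 nt from the peak centre. The gene start of *Copa* was 229 nt away, but its nearest transcript start was 47 nt away. At *Exoc5* the nearest transcript start of *Ap5m1* was 24 nt from the centre. *Ap5m1* encodes a subunit of an adaptor complex of late endosomes and so is itself a trafficking gene. The gene start of *Exoc5* was 182 nt away and its nearest transcript start 75 nt away. At *Snx5* the nearest transcript start of *Mgme1*, a mitochondrial nuclease, was 36 nt from the centre. The gene start of *Snx5* was 207 nt away and its nearest transcript start 85 nt away. The values of *Copa*, *Exoc5* and *Snx5* may therefore belong in part to their neighbours, and their share was not tested.

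The reverse also occurred, in that 16 peaks with no gene or with another gene assigned lay within 500 nt of an annotated start of a gene that fits the name rule. Of these, 7 had no gene assigned, and 15 of the trafficking genes concerned had no peak of their own. The exception was *Rab1A*, which had a further peak 368 nt upstream of its start with 12 and 5 (Ctrl) against 4 and 7 (Tet3smKO:T). The peak at the start of *Vps28*, a subunit of ESCRT-I, was assigned to *Tonsl* and had 5 in both Ctrl libraries and 12 in both Tet3smKO:T libraries. Its log2 fold change was 1.12 (SE 0.37), with an unadjusted p of 0.025 and an adjusted p of 0.681 in limma. The peak at the start of *Vps29*, a core retromer subunit, was assigned to *Rad9b* and had 15 and 4 (Ctrl) against 18 and 25 (Tet3smKO:T), a log2 fold change of 1.31 (SE 0.58; limma adjusted p = 0.691). Both libraries of Tet3smKO:T were also higher at the peaks near *Cog8* (10 and 13, then 14 and 16) and *Rab5if* (31 and 24, then 33 and 46), and the genotypes overlapped at the other 12. So 4 of the 16 were higher and 0 lower without overlap, where 17.1% and 16.6% of all peaks were. These peaks were singled out after their values were seen. The sequence around the start of *Vps28* nearest to the peak (chr15:76626057-76626236, minus strand, 131 bases of it in the peak at chr15:76626020-76626187) holds none of the motifs searched.
Vps28: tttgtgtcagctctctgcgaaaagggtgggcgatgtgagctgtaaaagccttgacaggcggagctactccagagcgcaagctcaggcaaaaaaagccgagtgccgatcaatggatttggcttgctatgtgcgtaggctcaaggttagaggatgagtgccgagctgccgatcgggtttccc

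Beyond their names, the trafficking peaks shared the sequence of CpG-rich promoters. In windows of 200 nt around the peak centre, the median GC content was 70.5% at trafficking peaks, 67% over all peaks, 69% at all promoter peaks and 56.75% at peaks further inside genes. The median CpG density was 11.5 per 100 nt at trafficking peaks, 10 over all peaks and 11 at all promoter peaks. Apart from *Arfgap3*, *Arl1* alone had a GC content under 50%, at 37.5%. A GC box stood in 29 of 45 windows (64.4%), against 54.1% of all peaks and 64.1% of all promoter peaks, and an ETS motif in 14 (31.1%), against 21.9% and 29.0%. These shares are close to those of promoter peaks at large.

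The letters CCACG, the core of the ER stress element at which the factors of the unfolded protein response bind together with CCAAT, stood in 27 of 45 trafficking windows (60.0%), against 37.9% of all peaks and 41.9% of all promoter peaks. They were found at *Sec13*, *Sec31a*, *Sec61a1*, *Copa*, *Cog2*, *Cog3* and each of the Tmed genes, and also at genes of endosomes and ESCRT such as *Rab5a* and *Chmp6*. They were not found at other genes of the ER and Golgi such as *Rab1A*, *Golga1*, *Golga7*, *Trappc9*, *Arl1*, *Arfgap3*, *Vamp4* and *Vps52*. At the 22 peaks of trafficking genes outside the name rule the share was 50%. No grouping of these genes was tested. In the windows from 150 bases before to 30 after the gene start, they stood at 21 of 43 trafficking promoters (48.8%) and at 36.1% of 1119 promoters with a peak. The full element, with CCAAT and CCACG set 9 bases apart, was at none of the 45 trafficking windows and at 1 of all 1761. The YY1 letters AAGATGGC stood in 6 trafficking windows (13.3%), of *Arf1*, *Copa*, *Exoc7*, *Rabl6*, *Snx1* and *Tmed9*, against 5.05% of all peaks and 6.58% of all promoter peaks, but in the windows at the gene start in 1 of 43 (2.33%) against 3.66%. The E-box CACGTG, whose letters can overlap CCACG, stood at *Rab3gap2*, *Snx5*, *Tbc1d5* and *Tbc1d7* (8.89%, against 7.04% and 7.38%). A CCAAT was in 15.6% of the trafficking windows (18.5% of all peaks), the NRF1 core in 8.89% (7.67%), TATAAA in 4.44% (3.12%) and CRE in 2.22% (2.67%). These matches are descriptions of letters and not of bound factors.

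**Figure D4:**
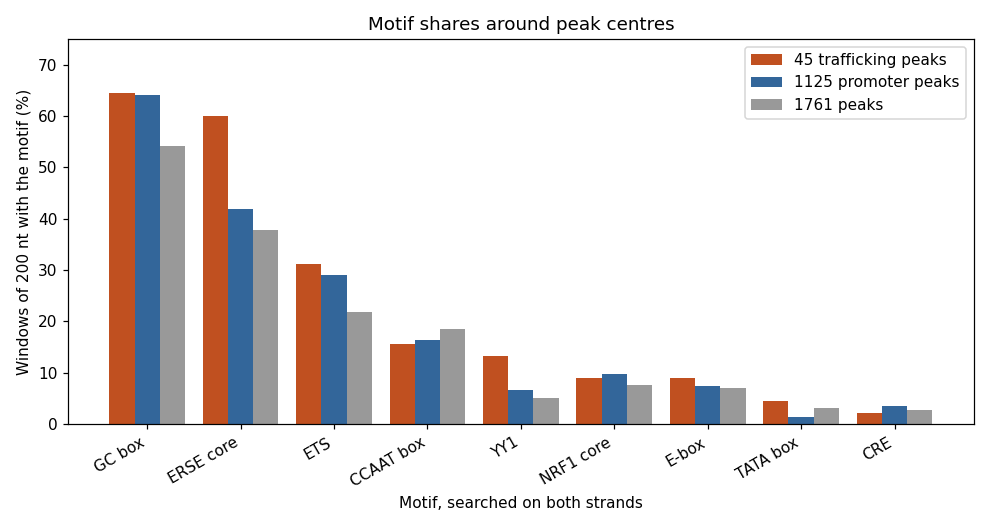
Share of 200-nt windows around the peak centre that hold each motif on either strand (y axis, percent), for the 45 trafficking peaks, the 1125 promoter peaks and all 1761 peaks. CCACG (ERSE core) stands at 60.0%, 41.9% and 37.9%, and the GC box at 64.4%, 64.1% and 54.1%.

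Trafficking genes outside the name rule, from a longer list of adaptors, clathrin, fusion factors and cargo receptors, had 22 peaks. None passed limma with Benjamini–Hochberg adjustment, and at an unadjusted p under 0.05 in limma 1 was lower and 0 higher. Both Tet3smKO:T libraries were higher at 3 of these peaks and lower at 5, beside 17.1% and 16.6% of all peaks, and the median log2 fold change was 0.033. *Cltc*, the clathrin heavy chain, had 23 and 25 (Ctrl) against 16 and 10 (Tet3smKO:T). Its log2 fold change was -0.87 (SE 0.31), with an unadjusted p of 0.033 and an adjusted p of 0.681 in limma. It was -0.56 without Tet3smKO:T replicate 2, and the unadjusted p was under 0.05 only without Tet3smKO:T replicate 1 among the 4 fits that left out a library. *Picalm*, which helps assemble clathrin, had 21 and 28 in Ctrl and 20 in both Tet3smKO:T libraries, and *Ap1g1*, a subunit of the Golgi clathrin adaptor, had 29 and 21 in Ctrl and 20 in both. The other 2 genes with lower values in both Tet3smKO:T libraries were the fusion factors *Ykt6* (19 and 18, then 12 and 17) and *Napg* (14 and 19, then 12 and 13). Higher values in both were found at *Uso1*, a tether of ER-to-Golgi vesicles (10 in both Ctrl libraries and 13 in both Tet3smKO:T libraries), at *Commd5* (9 and 6, then 16 and 11) and at a peak within *Rin2*, an exchange factor of Rab5 (3 and 8, then 12 and 14). The *Rin2* peak lay 12021 nt from the start and had a log2 fold change of 1.22 (limma unadjusted p = 0.052), which was 0.63 without Ctrl replicate 1.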

How the data were processed

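Pol II pSer5 ChIP–seq had been performed on sorted lung SMCs and sequenced with single-end reads. According to the methods, the authors trimmed and deduplicated reads (Picard 2.17.10; the submitters' processing notes also name Trimmomatic 0.36, FastQC, MACS2, DESeq2 and the build mm10), called peaks with MACS2, removed blacklisted regions, unified the peaks, recounted them, subtracted input and applied DESeq2 normalization. The aligner is not given in the sources used here. What the authors deposited for each peak in each library is a score (a read number after normalization, rounded to an integer) rather than a raw count. Input samples (4) have no values of their own and were not analysed here, and 0 columns of per-sample values were left unused. The authors also deposited the mean score of each genotype, not used here, the distance of the peak centre from the start of its gene, and, as a fraction, how much of the peak lies in the gene.

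Columns were matched to libraries by genotype and replicate number in the titles. The name rule, the gene lists and the tests were drawn up with earlier results of these data known, although the rule itself reads names only. Genotypes were compared with limma (version 3.58.1, R 4.3.3; lmFit, then eBayes with trend) on log2(value + 1), fitted to all 1761 peaks and also to sums per gene. Adjusted p-values follow Benjamini–Hochberg and the threshold was 0.05. The log2(value + 1) scale understates the change of low peaks. Since the values were normalized, a shift shared by most peaks cannot be seen. Reads were estimated by dividing the values of a library by its factor (0.69 to 1.25). The factor was itself estimated, by fitting a negative binomial distribution to the rounded values of the library. The tests were tested on simulated data. Named genes were the 2 of highest mean in each functional group, those with a peak inside the gene, those at an unadjusted p under 0.05, and the 3 highest and 3 lowest in fold change without overlap, and any others were chosen after their values were seen. Promoter peaks had their centre within 5000 nt of the gene start. Starts, partners and sequence came from GENCODE M21 and the GRCm38 genome (45 of 45 gene identifiers matched), with peak starts read as counted from 1. If the table counts starts from 0, each peak and its width lose 1 base. Motif shares in windows at the gene start and the full ER stress element were added after seeing the data. The rest was computed with Python 3.11.15 and its packages pandas 2.3.3, numpy 2.4.6, scipy 1.17.1, pysam 0.24.0 and matplotlib 3.10.9.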

Additional observations from a re-analysis of the deposited data

How the results depend on the processing

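The count of 0 trafficking peaks past the adjusted threshold held under each alternative run: pseudocounts of 0.1 and 10, the upper 75% of peaks by mean value, quantile normalization, equal totals, a replicate block, a quasi-Poisson test on estimated reads, promoter peaks only, the members without *Sec61a1*, and leaving out each library. Over all peaks, equal totals and the quasi-Poisson test each called 6 peaks instead of 0, none of a trafficking gene. The count at an unadjusted p under 0.05 was 1, and ranged from 1 to 3 when a library was left out, per peak and per gene, while over all 1761 peaks it was 127 and ranged from 92 to 178. The trafficking genes behind these counts changed with the library left out, and both higher and lower genes were among them. Each of these fits leaves 1 library in a genotype. With the replicate block the count was 0 per peak and per gene, and 74 of all peaks in place of 127. The deviations of same-numbered libraries correlated at -0.074 over all peaks. With so few estimated reads per peak, this value cannot show whether same-numbered libraries were paired. The median log2 fold change of the trafficking peaks, -0.018, ranged from -0.152 (without Ctrl replicate 2) to 0.0233 (without Tet3smKO:T replicate 1) when a library was left out, and that of *Rab33b*, -0.27, ranged from -0.562 to 0.0233 in the same way. The difference of the summed values, -26.5, ranged from -66 to 13 when a library was left out. The fold changes of *Golga5* (0.51 to 1.21), *Snx1* (0.46 to 1.14), *Rab3gap2*, *Tbc1d5*, *Arfgap1* (-1.19 to -0.42), *Snx5*, *Vamp4*, *Arfgap3*, *Cltc* and *Rin2* kept their sign under each alternative that tested them. All 43 promoter peaks were also within 1000 nt of a start, and a GC box stood in 30 whole peaks against 29 windows, CCACG in 26 against 27. Each value rests on a median of 11 to 17 estimated reads, which limits its precision.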
